A study of Danio rerio with 6 samples.

Results

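The 576 regions described here are stretches of open chromatin that were listed more often in wt1b-overexpressing than in control zebrafish cells. The assay was ATAC-seq: Tn5, a transposase, cuts DNA where it is accessible and adds sequencing adapters, so that peaks mark open regions such as promoters and enhancers. The 6 libraries came from GFP-positive cells, labelled as cardiomyocytes, sorted at 5 days after fertilisation from larvae of the AB strain. All fish carried the driver Tg(myl7:Gal4)cbg2Tg, in which Gal4, an activator from yeast, is driven by the promoter of myl7, a gene of heart muscle. The 3 control libraries also carried Tg(eGFP:5xUAS:RFP; gcryst:cerulean)cn15, so that Gal4 switched on GFP and the red fluorescent protein RFP. In the 3 wt1b libraries the second transgene was Tg(eGFP:5xUAS:wt1b; gcryst:cerulean)cn15, with wt1b in place of RFP. Both groups therefore contained Gal4 and GFP, and wt1b was forced on in cells in which the myl7 promoter was active. Nothing in the labels says whether the replicates came from separate clutches, so p-values measure the spread between these libraries, which may be technical. The labelled cell type and the wt1b transgene were not checked against marker genes, since the peaks were not matched to genes here.

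wt1b encodes a zebrafish form of WT1, a zinc-finger transcription factor that binds GC-rich DNA and can activate or repress its targets. In the vertebrate heart WT1 is known from the epicardium, the outer cell layer, where it is needed for epicardial cells to give rise to mesenchyme. Forced expression in heart muscle places the factor in cells outside that layer, and the comparison asked where the chromatin of those cells differed.

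Peaks of all libraries that shared at least 1 bp were merged on the 25 chromosomes, which gave 71293 regions. A region was a member if it held a peak of at least 2 wt1b libraries and of at most 1 control library. The peak calls themselves thus chose the members, and their counts are a description without a test. The 576 members were 0.808% of the merged regions and 16.1% of the 3582 regions that held a peak of at least 2 wt1b libraries. The mirrored rule, at least 2 control libraries and at most 1 wt1b library, was met by 6699 regions, which were 9.40% of the merged regions and 69.0% of the 9705 regions with a peak of at least 2 control libraries. The lists differed in length: the control lists held 29887, 29561 and 23334 peaks in replicates 1, 2 and 3, and the wt1b lists held 9310, 4122 and 4091. Read depth was not in the files used here and is unknown.

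Most members held a listed peak in a control library, and those without one need not be closed. Of the 576 members, 419 held a peak of 1 control library and 157, or 0.220% of the merged regions, held none. For the mirrored regions, 4408 held no wt1b peak, which is 6.18% of the merged regions. By number of libraries, 348 members held peaks of 2 wt1b and 1 control library, 149 of 2 wt1b and no control, 71 of 3 wt1b and 1 control, and 8 of 3 wt1b and no control. Those 8 regions were 0.0112% of the merged regions, against 0.825% for the 588 regions of 3 control and no wt1b libraries. Control libraries shared only 16.2% to 29.7% of their regions with another control library. Most regions of a control list thus lacked a peak of any other given control list, which limits what a missing control call means.

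**Figure D1:**
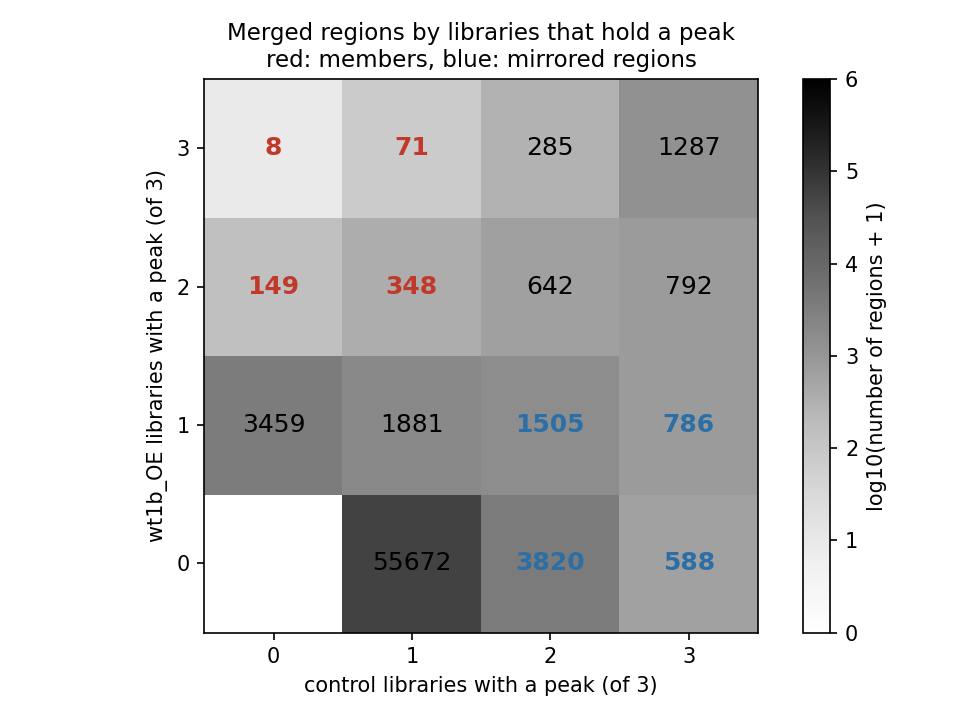
Number of merged regions by how many of 3 control libraries (horizontal) and of 3 wt1b libraries (vertical, wt1b_OE) held a peak; shading is the log10 of the number plus 1. The 4 member classes, in red, hold 8, 71, 149 and 348 regions, and the 4 mirrored classes, in blue, hold 588, 786, 1505 and 3820.

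The counts depended on each library and on list length. Without control replicate 1, 2 or 3 the rule gave 891, 1382 and 1343 members, and without wt1b replicate 1, 2 or 3 it gave 148, 299 and 291. Leaving out a control makes the limit of 1 control library easier to meet, and leaving out a wt1b library makes the minimum of 2 harder to meet. The mirrored count was 4084, 2549 and 2837 without control replicate 1, 2 or 3. Members with no control peak numbered 368 without control replicate 2 and 308 without replicate 3, and 26, 66 and 82 without wt1b replicate 1, 2 or 3. With the lists cut to an equal size, 4091 peaks each as in the shortest, the order of both counts turned, with 1388 members and 769 mirrored regions. The control lists were shortened to between 13.7% and 17.5% of their peaks, while wt1b replicate 1 retained 43.9%, replicate 2 retained 99.2% and replicate 3 retained 100%. Of the 1388 equal-size members, 317 (22.8%) overlapped a member of the full lists, and these 317 were 55.0% of the 576. The other equal-size members lay in regions with peaks of at least 2 control libraries in the full lists. This follows because each cut list is a part of its full list.

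The calls of members were also read in libraries left out of a choice. Every region chosen in this way meets the member rule, so these shares describe the members and do not test the preference. Regions were chosen on 2 wt1b libraries, both with a peak, and 2 control libraries, neither with a peak, and were then looked up in the remaining wt1b and the remaining control library. This gave 9 choices with 46 to 186 regions each. The left-out wt1b library held a peak in 18.0% to 50.6% of the chosen regions, with a mean of 29.8% ± 15.1 (SD over 3 left-out libraries). The regions called in it were those of all 3 wt1b libraries, whichever wt1b library was left out. With control replicate 1 left out, they were the same 20, of 46, 105 and 111 chosen regions. This SD thus comes from the number of chosen regions and not from the number called. The left-out control library held a peak in 26.1% to 70.8% of the chosen regions, with a mean of 51.0% ± 14.0 (SD over 3 left-out libraries). The control share was the higher in 8 of 9 choices, and in the remaining choice, which left out replicate 1 of both groups, 20 of 46 regions (43.5%, exact 95% interval 28.9% to 58.9%) were called in each. These shares are not comparable between the groups, since the control lists are several times longer. For the background, control replicates 1, 2 and 3 held a peak in 41.2%, 40.2% and 32.0% of all merged regions, and wt1b replicates 1, 2 and 3 in 12.4%, 5.33% and 5.38%. The share in the chosen regions was above this background in each wt1b library and in control replicates 2 and 3. With control replicate 1 left out it was 43.5%, 38.1% and 26.1%, against 41.2%. The background also counts regions called by the left-out library alone, which chosen regions cannot be, so the 2 shares are not fully alike. The full lists thus do not show on their own that these regions were open in wt1b and closed in control cells. The regions are called member regions here.

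With wt1b replicate 2 left out and control replicate 2 left out, for example, 181 regions were chosen. Of these, 45 (24.9%, exact 95% interval 18.7% to 31.8%) had a peak in wt1b replicate 2 and 116 (64.1%, 56.6% to 71.1%) had one in control replicate 2. For regions chosen in the mirrored way, the left-out control library held a peak in a mean of 37.8% ± 8.70 of them (SD over 3 left-out libraries). The left-out wt1b library held one in a mean of 16.3% ± 16.2, with a range of 6.15% to 36.3% that was highest with wt1b replicate 1 left out. The control share was the higher in 8 of 9 choices. The control library was thus the more frequent caller in 8 of 9 choices whichever group had chosen the regions, as longer lists would also give. The choices share libraries and are not independent, and the intervals cover the counting error of regions only.

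At equal list size the order was the opposite. The regions chosen on wt1b libraries were again members, here those of the equal-size lists, so this too is a description without a test. Regions chosen on 2 wt1b libraries, 347 to 485 per choice, were called in the left-out wt1b library at 45.2% to 52.0% (mean 48.3%) and in the left-out control library at 21.5% to 42.2% (mean 32.7%). The wt1b share was the higher in 9 of 9 choices. Regions chosen on 2 control libraries were called in the left-out control library at 19.2% to 38.2% (mean 30.5%). In the left-out wt1b library they were called at 19.1% to 42.4% (mean 28.7%), with the wt1b share the higher in 4 of 9 choices. The equal-size lists of wt1b replicates 2 and 3 hold nearly all of their peaks and those of the controls and of wt1b replicate 1 the strongest part, and the role of this difference in the result was not tested.

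**Figure D2:**
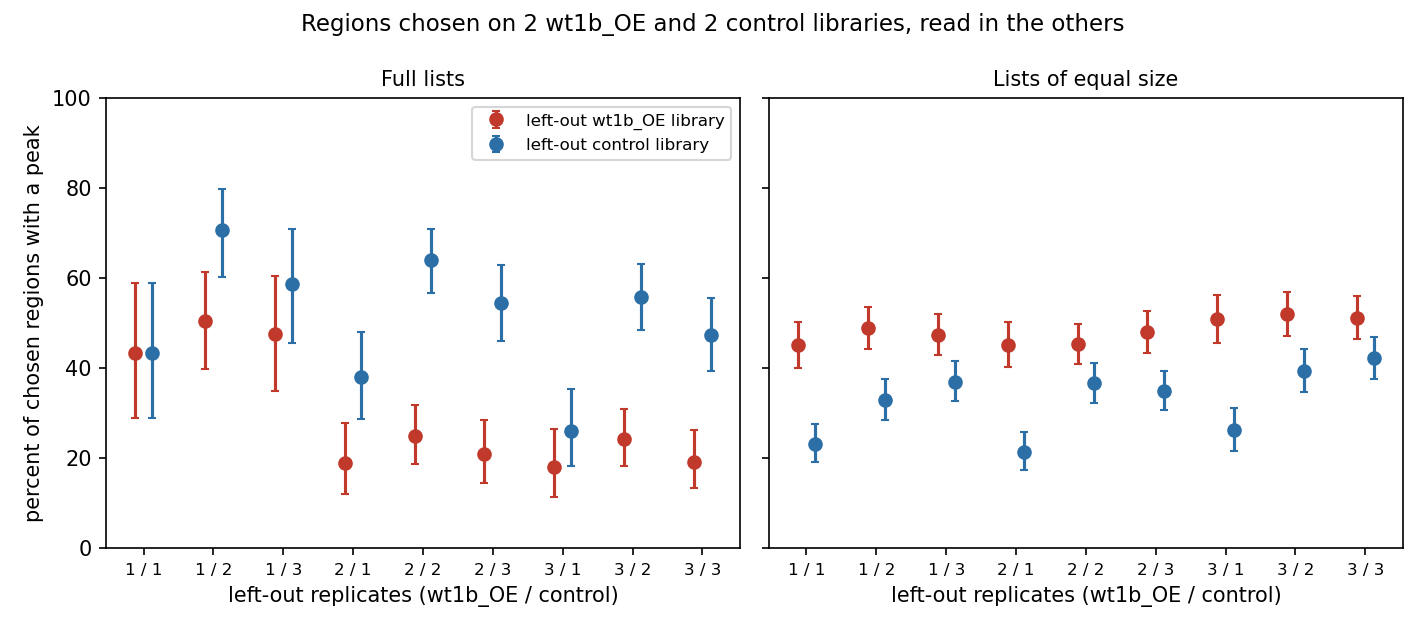
Percent of regions chosen on 2 wt1b and 2 control libraries that held a peak in the left-out wt1b library (red) and in the left-out control library (blue), for 9 choices of left-out replicates; bars are exact 95% intervals over regions. In full lists (left panel) the control share is the higher in 8 of 9 choices, and in lists of equal size (right panel) the wt1b share is the higher in 9 of 9. All chosen regions are members of their lists and the 9 choices share libraries, so these counts are a description without a test.

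The pairs of wt1b libraries contributed unequally. Replicates 1 and 3 alone carried 220 members, replicates 1 and 2 carried 210, and replicates 2 and 3 carried 67, while 79 members were called in all 3. The long list of replicate 1 thus took part in 509 of the 576 members. Against all regions with the same wt1b pattern, whatever the controls showed, members were 23.9% of the 920 regions of replicates 1 and 3, 24.5% of the 857 of replicates 1 and 2, and 43.5% of the 154 of replicates 2 and 3. Of the 1651 regions called in all 3 wt1b libraries, 4.78% were members. Members were thus a small part of the regions seen in every wt1b library.

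Where a member held a control peak, it was usually not that of control replicate 1. Control replicate 1 supplied 65 of the 419 control peaks (15.5%), replicate 2 supplied 209 (49.9%) and replicate 3 supplied 145 (34.6%). Over all regions with a peak of a single control library, the same shares were 39.6%, 35.0% and 25.4%, so control replicate 1 had a lower share among the members than over all such regions, although its list was the longest. The same library also called fewer of the 3582 regions with at least 2 wt1b peaks, at 68.5%, against 86.1% for control replicate 2 and 83.1% for replicate 3.

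The control peaks inside members mostly ranked in the upper part of their own lists. Strength was measured as the authors' score times the width, and each peak was given its percentile within its list, with 100 for the strongest. The score is a whole number limited to 1000, so the strength of a peak at the limit is a lower bound. Its percentile is uncertain in both directions, since other peaks of the list are at the limit too. Percentiles refer to lists of different length, so they describe a peak's place in its own list and are not compared between control and wt1b libraries. The median percentile of the member peaks was 78.7 in control replicate 1, 71.3 in replicate 2 and 71.1 in replicate 3. In control replicate 2, 65.6% of these peaks were at the score limit, against 35.4% of its whole list, and in replicate 3 the shares were 46.9% and 24.4%. In replicate 1 they were 24.6% and 20.5%. They were nonetheless below those of most classes of regions that more libraries shared: the median control percentile was 71.8 in members of 2 wt1b and 1 control library and 75.1 in those of 3 wt1b and 1 control library, against 71.4 for 2 wt1b and 2 control libraries and 78.1 to 89.7 for the other classes of at least 2 wt1b and at least 2 control libraries.

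The wt1b peaks of members ranked lower in their lists than those of regions shared with the controls. Their median percentile was 48.4 in wt1b replicate 1 (middle 50% of peaks from 22.7 to 68.4), 44.2 in replicate 2 (20.6 to 63.8) and 40.4 in replicate 3 (18.4 to 62.1). In the 3006 regions of at least 2 wt1b and at least 2 control libraries the medians were 74.2, 61.9 and 62.5. Peaks above the 90th percentile made up 4.15%, 3.55% and 1.34% of the member peaks in replicates 1, 2 and 3, against 23.8%, 15.1% and 15.3% in the regions shared with controls. The median score of member peaks was 898, 757.5 and 720. Their median width was 396, 399 and 411 bp, against 419, 417 and 448 bp over the whole lists of wt1b replicates 1, 2 and 3.

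Sorting the 3582 regions with at least 2 wt1b peaks into 10 classes by mean wt1b percentile showed how the share of members fell with strength. Here and below, the mean covers only the wt1b libraries that called the region, so a missing library does not lower it. In the weakest class 138 of 359 regions (38.4%) were members, in class 5 it was 60 of 358 (16.8%), and in the strongest class 6 of 358 (1.68%). Members with no control peak numbered 41 in the weakest class and 1 in the strongest. The mirrored share fell in the same way, from 92.5% of the weakest regions with at least 2 control peaks to 19.6% of the strongest. The calls that chose the members also set these classes, and the trend is a description.

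**Figure D3:**
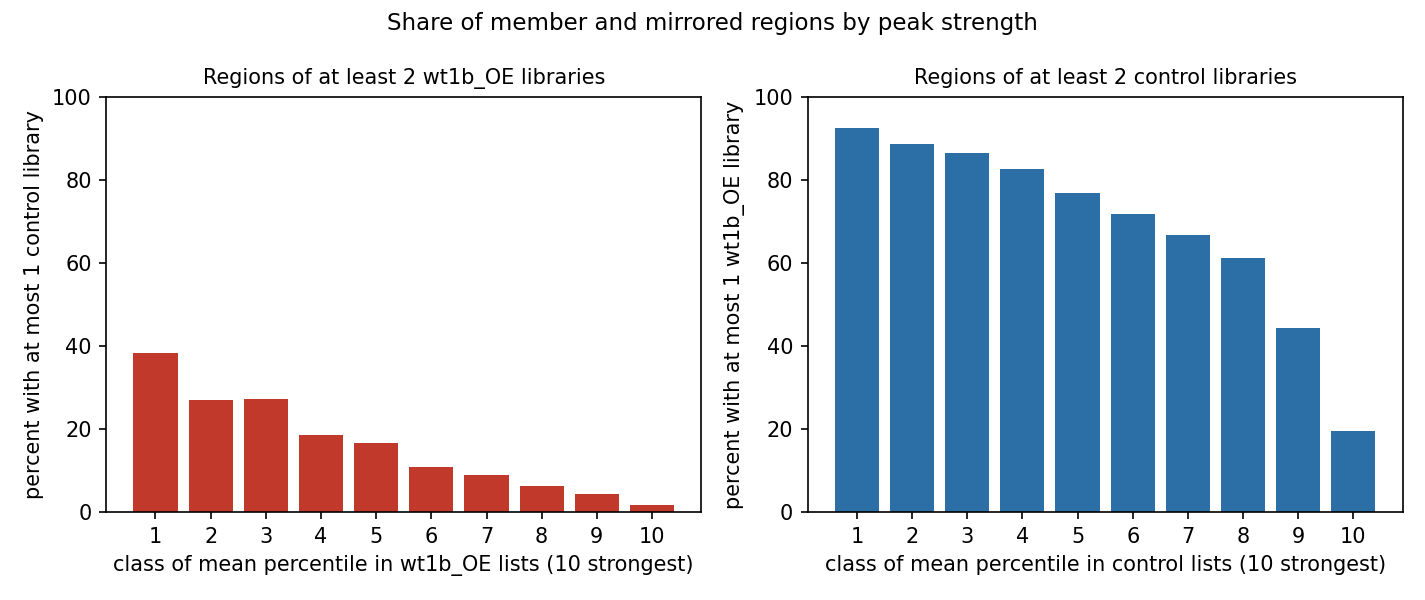
Share of regions that met the member rule (left, among regions of at least 2 wt1b libraries) and the mirrored rule (right, among regions of at least 2 control libraries) in 10 classes of mean peak percentile, weakest to strongest. The member share falls from 38.4% to 1.68% and the mirrored share from 92.5% to 19.6%.

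Regions next to the thresholds differed from the members by degrees. The 348 members of 2 wt1b and 1 control library had a median width of 614 bp and a median wt1b percentile of 44.4. Just outside the rule on the control side, the 642 regions of 2 wt1b and 2 control libraries had 708.5 bp and 52.8. On the wt1b side, the 1881 regions of 1 wt1b and 1 control library had 548 bp and 38.5, and the 3459 regions of 1 wt1b and no control library had 410 bp and 29.6. Width and strength thus rose step by step with the number of libraries in these classes. The order did not hold in every class. The 8 members of 3 wt1b and no control library had 692.5 bp and 61.8, above the 648 bp and 50.6 of the 71 members of 3 wt1b and 1 control library.

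Members were wider than merged regions in general and narrower than those shared by most libraries. A member joins peaks of at least 2 libraries, while 55672 merged regions held a peak of 1 control library alone, with a median of 399 bp. The width of a merged region thus depends on the rule, and single wt1b peaks in members had lower median widths than their lists. Their median width was 595.5 bp, with the middle 50% of them between 474.5 and 740.25 bp and a range of 144 to 1950 bp, against a median of 431 bp over all merged regions, 620 bp in the mirrored regions and 833 bp in the regions of at least 2 wt1b and 2 control libraries. Among the members, 9 (1.56%) were narrower than 200 bp and 2 (0.347%) reached 1500 bp, against 3.65% and 0.422% of all merged regions. In 568 of the 576 members the peaks of 2 wt1b libraries overlapped each other directly, and in 8 they were joined only through a control peak. In 430 members (74.7%) the peaks of 2 wt1b libraries shared at least 50% of both. Of the 419 members with a control peak, that peak touched the peaks of at least 2 wt1b libraries in 407, so the control signal generally lay on the same site.

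The 157 members without a control peak lay at varied distances from one, and the same distances are not given here for other merged regions. The nearest control peak lay within 500 bp of 20 of them, within 1 kb of 32 and within 10 kb of 117, at a median distance of 4521 bp. For the 497 members of 2 wt1b libraries, the wt1b library without a call had a peak within 500 bp of 14 and within 10 kb of 93.

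Of the 8 regions called in all 3 wt1b and no control libraries, the one with the highest mean wt1b percentile, 89.2, was on chromosome 8 from 34570405 to 34571185 (all positions counted from 1, in GRCz11 per the submitters' processing notes). Its peaks had scores of 1000, 1000 and 1000 in wt1b replicates 1, 2 and 3, widths of 483, 781 and 717 bp and percentiles of 78.4, 95.9 and 93.5. The nearest peaks of control replicates 1, 2 and 3 lay 41495, 42934 and 42978 bp away. This region was thus at the score limit in every wt1b list, and no control list held a peak nearer than 41495 bp. Counted in kb from position 34452372, it ran from 118.033 to 118.814. Beyond it, the next peaks of control replicates 1, 2 and 3 began at 160.309, 161.748 and 161.792 kb. Those of wt1b replicates 1, 2 and 3 began at 162.148, 161.806 and 161.573 kb, so the gap beyond the region was shared by both groups.

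The region with the next highest mean percentile lay on the same chromosome, from 34985292 to 34986266. It had scores of 1000, 860 and 460 in wt1b replicates 1, 2 and 3, at percentiles of 95.4, 94.7 and 56.1. Control peaks were near, at 823, 705 and 4529 bp in replicates 1, 2 and 3. The region stood out in wt1b replicates 1 and 2 and was average in replicate 3.

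On chromosome 15, the region from 3281893 to 3282520 had scores of 949, 627 and 888 and percentiles of 84.0, 43.3 and 86.1 in wt1b replicates 1, 2 and 3, with control peaks 1715 to 4228 bp away. On chromosome 24, the region from 29722369 to 29723027 had scores of 641, 627 and 826 and percentiles of 64.5, 44.0 and 82.6, with control peaks 13091 to 39307 bp away. Both had their highest percentile in replicate 3 and their lowest in replicate 2.

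Chromosome 4 carried a pair of these regions. The region from 42760541 to 42760964 was at the score limit in all 3 wt1b libraries with peaks of 296, 424 and 314 bp, and its nearest control peaks lay 95975, 118823 and 45971 bp away in replicates 1, 2 and 3. The region from 38282283 to 38283008 had scores of 698, 445 and 760, with control peaks 19684 to 56824 bp away. The first of these was thus the most isolated from control peaks of all 8 regions. Its distance to other wt1b peaks is not given here, so the isolation may not be particular to the control lists.

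The remaining regions had scores under the limit in most libraries. On chromosome 8, from 12633345 to 12634240, the scores were 564, 684 and 389 and the percentiles 13.5, 66.7 and 38.2 in wt1b replicates 1, 2 and 3, with a control peak 2324 to 2338 bp away in each control library. On chromosome 22, from 12162148 to 12162761, the scores were 626, 733 and 1000, the last for a peak of 203 bp at the 8.96th percentile. The mean wt1b percentiles were 39.5 on chromosome 8 and 32.8 on chromosome 22, the latter uncertain because of the peak at the score limit.

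Among the 71 members of 3 wt1b and 1 control library, the highest mean wt1b percentile was that of chromosome 18 from 18170077 to 18170933. It stood at percentiles of 96.4, 93.0 and 59.0 in wt1b replicates 1, 2 and 3 and at 89.5 in control replicate 1, while the other control lists had no peak within 14238 bp. The second, on chromosome 21 from 38033053 to 38034289, stood at 90.9, 90.2 and 64.1 in the wt1b lists and at 99.2 in control replicate 2, where its peak was 1032 bp wide. The third, on chromosome 16 from 27223991 to 27224671, stood at 71.9, 73.4 and 82.2 in the wt1b lists and at 94.2 in control replicate 2, with the peaks of wt1b replicates 1 and 2 and of the control at the score limit. The other named regions of this class were on chromosome 8 from 34453985 to 34454671, with 74.8, 76.3 and 72.4 in the wt1b lists and 77.7 in control replicate 1, and on chromosome 4 from 51536218 to 51537236, with 65.6, 66.9 and 89.0 in the wt1b lists and 86.9 in control replicate 1. At the chromosome 4 region the nearest peaks of control replicates 2 and 3 were 368710 and 440513 bp away.

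The 5 members of 2 wt1b and no control libraries with the highest mean percentile began with chromosome 2 from 15091938 to 15092906, which had percentiles of 94.0 in wt1b replicate 1 and 79.3 in replicate 3. A second on chromosome 2, from 51741627 to 51742685, had 93.8 in replicate 1, and in replicate 3 it held 2 peaks of which the stronger stood at 72.3. The third, on chromosome 18 from 40753300 to 40753900, had 86.3 and 79.0 in replicates 1 and 3, and replicate 2 had a peak 583 bp away. On chromosome 5, from 69183089 to 69183844, replicates 1 and 3 had 85.3 and 74.7, and the nearest peak of replicate 2 was 400263 bp away. The last, on chromosome 24 from 26093591 to 26094110, was at the score limit in replicates 2 and 3 and had no peak of replicate 1 within 243504 bp. Replicate 2 was the missing library in 4 of these 5.

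Among the 348 members of 2 wt1b and 1 control library were those with the highest mean wt1b percentiles of the whole set. These means leave out the wt1b library without a peak. The region on chromosome 16 from 18967435 to 18968904 stood at percentiles of 97.5 and 97.4 in wt1b replicates 1 and 2 and at 89.1 in control replicate 3, while control replicate 1 had a peak 382 bp away. The region on chromosome 10 from 44964015 to 44965288 stood at 93.8 and 99.0 in wt1b replicates 2 and 3 and at 95.2 in control replicate 2, with a peak of control replicate 3 at 462 bp. The region on chromosome 8 from 39410580 to 39411990 stood at 95.5 and 94.2 in wt1b replicates 2 and 3 and at 55.0 in control replicate 2, and the nearest peaks of control replicate 3 and wt1b replicate 1 were 137160 and 136431 bp away. Each of the 3 thus lay near the top of the 2 wt1b lists that called it, and the remaining wt1b list held no peak there. The chromosome 8 region ranked near the middle of the list of control replicate 2. That list is longer, so this rank is not comparable with those in the wt1b lists. The other named regions of this class were on chromosome 24 from 39387747 to 39388787, at 96.8 and 83.0 in wt1b replicates 1 and 2 and 85.5 in control replicate 1, and on chromosome 8 from 23703201 to 23704137, at 89.6 and 87.5 in wt1b replicates 1 and 2 and 90.6 in control replicate 3.

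Members were spread over all 25 chromosomes, with 15 to 45 on each. As a share of the regions with at least 2 wt1b peaks they ranged from 10.1% on chromosome 3 (22 of 218) and 10.7% on chromosome 1 (15 of 140) to 19.6% on chromosome 5 (45 of 230) and 19.8% on chromosome 15 (25 of 126). Chromosomes 8 and 16 held 34 members each, which were 1.18% and 1.19% of their merged regions. Chromosome 4 held 20, or 0.805% of its merged regions. The median distance between a member and the nearest other member was 709617 bp, and 106 members (18.4%) had another within 100 kb. Counted in windows of 1 Mb, 330 windows held 1 member and 89 held 2, while 19 held 3 or more.

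Windows of up to 100 kb with 3 members occurred at 3 places. On chromosome 2, from 37401088 to 37411353, 3 members lay within 10266 bp, where the control replicates had 0, 1 and 1 peaks and the wt1b replicates 1, 3 and 2. On chromosome 8, from 23146992 to 23213454, 3 members lay within 66463 bp that held 2, 4 and 1 control peaks and 4, 1 and 3 wt1b peaks. Their mean wt1b percentiles were 11.8, 3.32 and 18.8. For the first and second members these are uncertain, since 3 of their 4 wt1b peaks were narrow peaks at the score limit. The third place, also on chromosome 8, ran from 34983876 to 34987266, where the control replicates had 1, 1 and 0 peaks and the wt1b replicates 3, 2 and 3.

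That last group was the end of the stretch with most members in 1 Mb, which held 7 of them between 34452372 and 34987266 on chromosome 8. Of these 7, 5 were called in all 3 wt1b libraries and 2 of the 5 in no control library. The stretch of 534895 bp was rich in peaks in every library, with 34, 28 and 20 peaks in control replicates 1, 2 and 3 and 29, 17 and 26 in wt1b replicates 1, 2 and 3. It held 0.0857% to 0.114% of each control list and 0.311%, 0.412% and 0.636% of the wt1b lists. Similar numbers of peaks make up a larger share of the shorter wt1b lists, and how often other stretches show this was not tested. Of its 49 merged regions, 7 were called in all 6 libraries and 6 met the mirrored rule. The stretch was chosen for its members, so these values have no test. Without it, chromosome 8 had 27 members, and their share of the regions with at least 2 wt1b peaks was 16.4% in place of 18.5%.

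**Figure D4:**
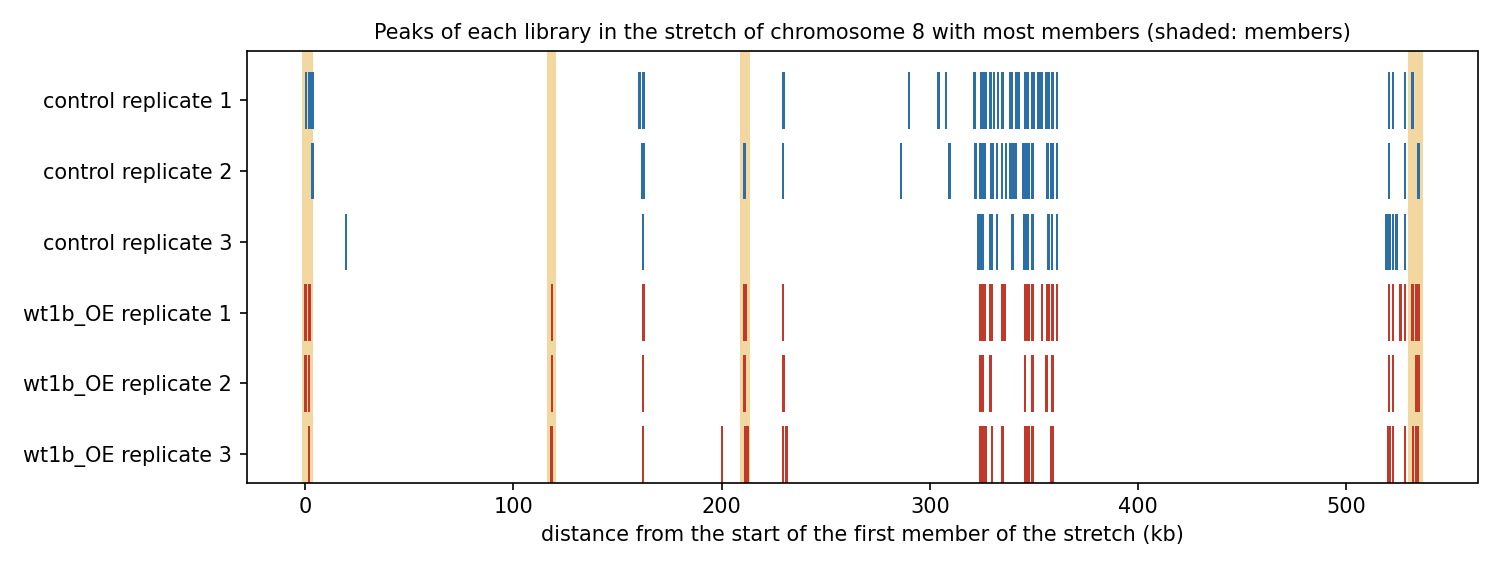
Peaks of the 6 libraries (bars, control in blue and wt1b in red; narrow peaks are widened to 1.2 kb to be visible) against the distance in kb from the start of the first of the 7 members (shaded) on chromosome 8. Peaks crowd in all 6 libraries in a part without members, between the member near 211 kb and those at the right end, while the member near 118 kb has peaks in the 3 wt1b libraries alone.

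Peaks beside the members, which were not the peaks that chose them, were compared between the groups. They came from the same 6 libraries as the calls behind the rule, so the comparison is not independent of it. The permutation relabelled the libraries and kept the regions as chosen, so its p-values do not allow for that choice. Of the peaks outside members, 1.32%, 1.73% and 1.61% lay within 10 kb of a member in control replicates 1, 2 and 3, and 3.03%, 3.91% and 3.58% did in wt1b replicates 1, 2 and 3. Control libraries had a mean of 1.56% ± 0.208 (SD, n = 3) and wt1b libraries one of 3.51% ± 0.446 (SD, n = 3), and the groups did not overlap. The difference was 1.95 percentage points (exact two-sided permutation p = 0.1, the smallest that 3 libraries against 3 allow). When single libraries were left out, the members were chosen anew, and the sets held 148 to 1382 regions. The difference ran from 0.874 percentage points without wt1b replicate 1, with 148 members, to 4.36 without control replicate 2, with 1382. The other values were 1.05 without wt1b replicate 2, 1.24 without wt1b replicate 3, 2.90 without control replicate 1 and 4.10 without control replicate 3. The smallest set thus gave the smallest difference and the largest set the largest, and the range does not describe the same members.

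The neighbourhood of the mirrored regions showed the same direction. Within 10 kb of them lay 13.9% ± 1.56 (SD, n = 3) of the other control peaks and 21.1% ± 0.500 (SD, n = 3) of the other wt1b peaks, a difference of 7.22 percentage points (exact two-sided permutation p = 0.1, the smallest possible). In full lists, a larger share of the wt1b than of the control peaks thus lay near members and near mirrored regions alike. At equal list size the members were the 1388 of those lists, of which 317 overlapped a member of the full lists. Near them the values were 6.69% ± 0.682 in control and 8.72% ± 0.129 in wt1b libraries (SD, n = 3). The difference was 2.02 points (exact permutation p = 0.1, the smallest possible). It rests on more members and shorter lists than the difference in full lists, so the sizes of the 2 differences are not comparable. These members too were chosen from calls of the same libraries, and the p-value does not allow for that choice. Near mirrored regions of the equal-size lists the shares were 3.72% ± 0.381 in control and 3.87% ± 0.691 in wt1b libraries (SD, n = 3). The difference was 0.147 points, within the spread between replicates (exact permutation p = 0.8). Whether the differences near members and near mirrored regions differ from each other was not tested.

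**Figure D5:**
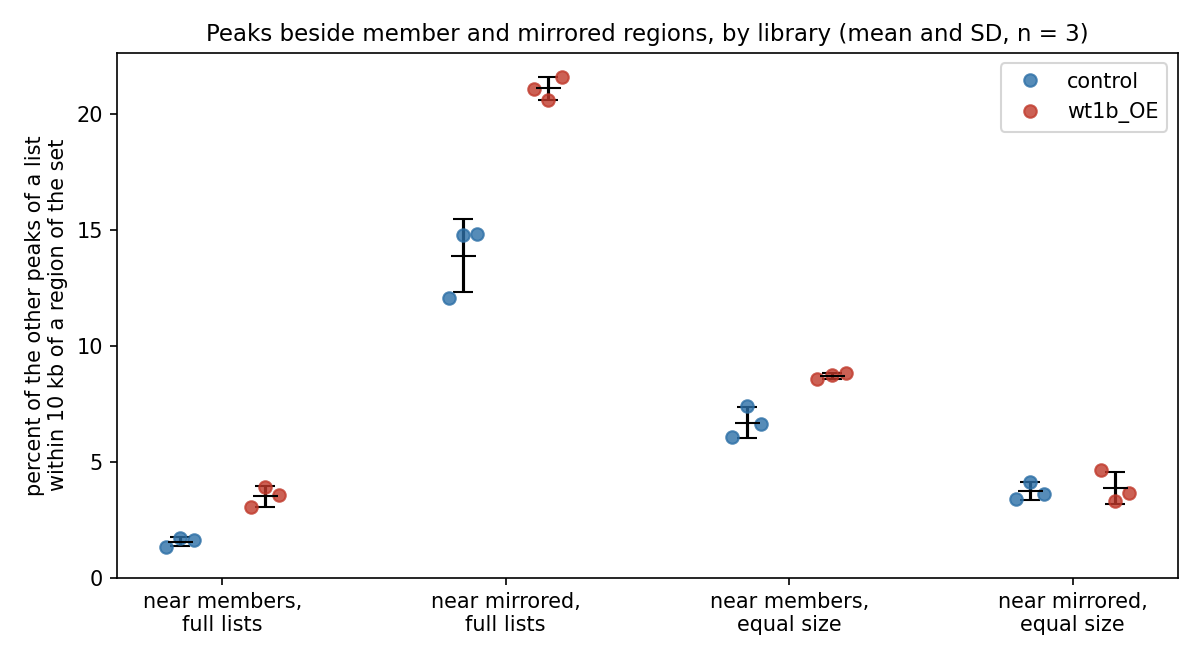
Percent of the peaks of each library, outside the regions of the set, that lay within 10 kb of a member or of a mirrored region, in full lists and in lists of equal size. Each kind of list has its own members and mirrored regions. Points are libraries, and the bars give the mean and SD of 3. wt1b libraries lie above the control libraries near members in both kinds of list and near mirrored regions in full lists, and the groups overlap near mirrored regions at equal size.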

How the data were processed

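ATAC-seq peak lists of 3 control and 3 wt1b libraries were analysed, grouped and numbered by their titles. Per the labels' protocols, sorted cells were lysed, tagmented for 30 min and amplified by 15 cycles of PCR. Per the submitters' processing notes, Bowtie2, Genrich and other tools and the build GRCz11 (danRer11) were used, with roles and settings not given in the sources used here. The authors deposited 1 list per library, with the position of each peak and a score per peak, a whole number of at most 1000. Under that limit, the product of score and width, over 1000, had a minimum of 199.798 over the lists, so weaker peaks were not listed and a region without a peak need not be closed. The score served to rank the peaks of a list.

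Peaks on 25 chromosomes were merged where they shared at least 1 bp, with Python 3.11.15, numpy 2.4.6, pandas 2.3.3 and scipy 1.17.1. The number of merged regions equalled that of bedtools 2.31.1, and the rule was tested on simulated lists. Intervals are exact Clopper-Pearson intervals. Differences between groups were tested by exact permutation of the libraries, with the regions kept as chosen. Read depth is unknown, and the length of the lists sets the precision. No list duplicated another: at most 67.0% of a library's regions were shared with a replicate. Control libraries shared 16.2% to 29.7% of their regions with another control library, and wt1b libraries 28.5% to 67.0% with another wt1b library.

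Named regions were every region of 3 wt1b and no control libraries, the 5 with the best mean wt1b percentile in each other class, and places with 3 members within 100 kb. The members, lists and tests were chosen with earlier results of these data known. Of 11 planned results, 3 (promoters, motifs and the transgene check) needed a genome or annotation in these coordinates and were not run, nor were the gene lists, so genes and sequences at the members were not analysed here. Alternatives covered sequences, merging, peak extent, list length, ranking, pairing and the omission of each library.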

Additional observations from a re-analysis of the deposited data

How the results depend on the processing

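The number of members was 585 with all sequences, 566 with peaks within 100 bp merged, 765 with peak centres extended to 200 bp and 430 where peaks of 2 wt1b libraries had to share 50% of both. It moved by over 1.5 times with list length. With the stronger 50% of each list there were 297 members, 3979 mirrored regions and 63 members with no control peak. With equal-size lists there were 1388, 769 and 622, and with equal-size lists ranked by score and then width, an alternative chosen after seeing the data, 1276, 828 and 550. With each library left out in turn, members ranged from 148 to 1382, mirrored regions from 2549 to 8068 and members with no control peak from 26 to 368. The rule itself becomes easier or harder to meet in these fits. The share of chosen regions called in the left-out libraries was 29.8% in wt1b and 51.0% in control. It moved to 48.3% and 32.7% with equal-size lists and to 49.1% and 32.2% with equal-size lists by score and then width. These alternatives shorten the control lists and that of wt1b replicate 1 together, and the cause was not tested. The difference in peaks within 10 kb of members kept its direction in all 10 alternatives. Among these, the mean with replicate blocks is the same as without by construction. The fits that left out a library chose the members anew by the same rule and gave 0.874 to 4.36 percentage points, so their shared direction is not independent of the rule. The difference was 1.91 points without the members of the chromosome 8 stretch. With so few libraries the test cannot pass a threshold of 0.05, and its p-values do not bear on stability. With the replicate number as a block the paired difference was 1.95 points (exact sign-flip p = 0.25, the smallest possible). Libraries that share a number did not deviate together: over regions of at least 2 libraries, their deviations from the mean of the group correlated at -0.040, -0.0026 and -0.052.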

Other observations

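Outside the 25 chromosomes, on the unplaced scaffolds, 9 of 1113 merged regions (0.809%) met the member rule and 115 met the mirrored rule.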
